A study of Mus musculus with 74 samples.

Results

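The genes described here are the cytosolic ribosomal protein genes, the Rpl and Rps genes whose products build the large and the small subunit of the ribosome. They were taken as every protein-coding line of the count table whose mouse symbol begins with Rpl or Rps and a number, with Rplp0, Rplp1, Rplp2 and Rpsa included and the Rps6k kinases and mitochondrial Mrp genes left out. The letters matched 102 coding lines, from which 10 Rps6k kinases and Rps19bp1, a binding partner and not a subunit, were set aside. This left 91 genes of the 30323 lines in the table. They comprised 54 large-subunit, 34 small-subunit and 3 stalk genes. By symbol, 77 were the standard ribosomal protein genes, 7 were paralogs (Rpl3l, Rpl7l1, Rpl10l, Rpl22l1, Rpl36al, Rpl39l and Rps27l) and 7 were coding lines with the name of a copy (Rpl9-ps1, Rpl9-ps6, Rpl10-ps3, Rpl36-ps4, Rpl36a-ps1, Rps12-ps3 and Rps27rt).

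RNA was measured in 74 single cells of the mouse pro-epicardial organ, the transient outgrowth at the inflow of the heart tube that gives rise to the epicardium. The embryos were Tbx18Cre;mTmG on a C57BL/6 background at embryonic day 9.5, and cells labelled by Tbx18-driven Cre recombination were sorted one by one, so the sample holds cells with a history of Tbx18 activity and not the whole organ. Libraries were full-length (SMARTSeq V4 with Nextera XT), and the series has 1 group, with no treatment and no control. Because embryo and litter of a cell are not stated, all cells together count as 1 sample. Differences between cells therefore carry no p-value, and each error given is the standard deviation (SD) over cells.

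Every ribosome needs 1 copy of nearly every ribosomal protein, and only the stalk proteins Rplp1 and Rplp2 are present as more. Their mRNAs start with a run of pyrimidines, the 5′ TOP motif, through which the mTOR pathway and Larp1 set their translation together, and Myc is a known activator of their transcription. Ribosomal protein genes are also the source of many processed pseudogenes, copies of the mRNA inserted elsewhere in the genome, which can take reads that belong to the parent gene.

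The copies are shown first because they decide the level of some genes. Rps12 (chromosome 10, 23785183 to 23787275, GRCm38) has copies on chromosome 19 (Rps12-ps3, 59322290 to 59322783) and chromosome 7 (Rps12l1, 56014016 to 56014414). All 399 coding bases were identical in the parent and in both copies. The first 60 coding bases of each were as follows, from position 1 to position 60.
Rps12: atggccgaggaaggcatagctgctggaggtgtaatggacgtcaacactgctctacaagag
Rps12-ps3: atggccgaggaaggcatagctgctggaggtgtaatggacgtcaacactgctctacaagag
Rps12l1: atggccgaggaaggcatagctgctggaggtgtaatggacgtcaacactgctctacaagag

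Rpl5 (chromosome 5, 107900502 to 107909005) has a copy, Gm15500 (chromosome 7, 114705217 to 114706235), with the same 894 coding bases. Rpl12 (chromosome 2, 32961559 to 32965345) has a copy, Gm10275 (chromosome 10, 29698746 to 29699380), with the same 498 coding bases. Rps13 (chromosome 7, 116331505 to 116334195) and its copy Rps13-ps1 (chromosome 8, 87047689 to 87048226) differed at 2 of 456 coding bases (99.6% identity). Both differences lie between coding positions 370 and 429, and capitals mark them in the copy.
Rps13: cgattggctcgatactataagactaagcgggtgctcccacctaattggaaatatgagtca
Rps13-ps1: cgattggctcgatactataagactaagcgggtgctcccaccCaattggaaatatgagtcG

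Nearly all standard ribosomal protein genes were found in every cell. Detection in a cell required at least 5 counts for the gene. By that measure 73 of the 77 standard genes were detected in all 74 cells (100%, exact Clopper-Pearson 95% interval for each from 95.1%), and 76 were detected in at least 90% of cells. Levels are given as CPM, the count of a gene divided by the total count of its cell on a common scale. The mean level reached 10 CPM for 82 of the 91 genes, and for 9 it did not. The only standard gene below 10 CPM was Rps12, with 15 counts over all cells together and detection in none of them. For a gene detected in none of 74 cells, 3 cells of 74 (4.05%) is taken as the upper limit for cells that reach the detection count, which is not a limit on cells that express the gene. These intervals cover counting error only, and reads without molecular identifiers are not independent molecules.

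Ribosomal protein genes took a median of 5.08% of the counts of a cell. The lowest cell was at 3.21%, the highest at 7.18%, a 2.23-fold range, and the mean was 5.16% ± 0.867 (SD, n = 74 cells). Both subunits moved together. Large-subunit genes took 2.67% ± 0.433 and small-subunit genes 2.21% ± 0.384 of counts, and the ratio of small to large stayed between 0.733 and 0.898 in every cell. Over the 74 cells the small-subunit share and the large-subunit share had a Pearson r of 0.97 and a Spearman rho of 0.97. Both shares come from the same library of each cell, so a common technical component is part of this value. Total counts per cell ranged from 216177 to 2618538 (median 849718), with a median of 7858.5 genes detected. The share had a Spearman rho of -0.018 with total counts and of -0.069 with the number of genes detected.

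Expression per transcript length, the scale on which genes can be compared with each other, was highest for Rpl41, which encodes the smallest ribosomal protein. Rpl41 had 3175 ± 620.4 CPM per kb (mean ± SD over 74 cells). Other high genes were Rps18 at 2426 CPM per kb, Rps2 at 2259, Rps28 at 1821, Rpl13 at 1809, Rps14 at 1789, Rpl37a at 1702 and Rps29 at 1504. The median of the 76 standard genes with at least 10 CPM was 706 CPM per kb, and 10% of them were below 151. Among the lowest of them were Rpl5 at 33.7 CPM per kb, Rpl12 at 57.6, Rps25 at 73.9 and Rps13 at 77.7. The highest and the lowest of these 76 genes thus differed 94.2-fold per length. Rpl5, Rpl12 and Rps13 have near-identical copies with more counts than the genes themselves, described further on, so the lower end of this range depends on how reads were assigned. Transcript lengths are those of the annotation, and for Rps20 and Rps15a, at 3706 and 3650 bases, long annotated transcripts lower the value per kb.

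**Figure D1:**
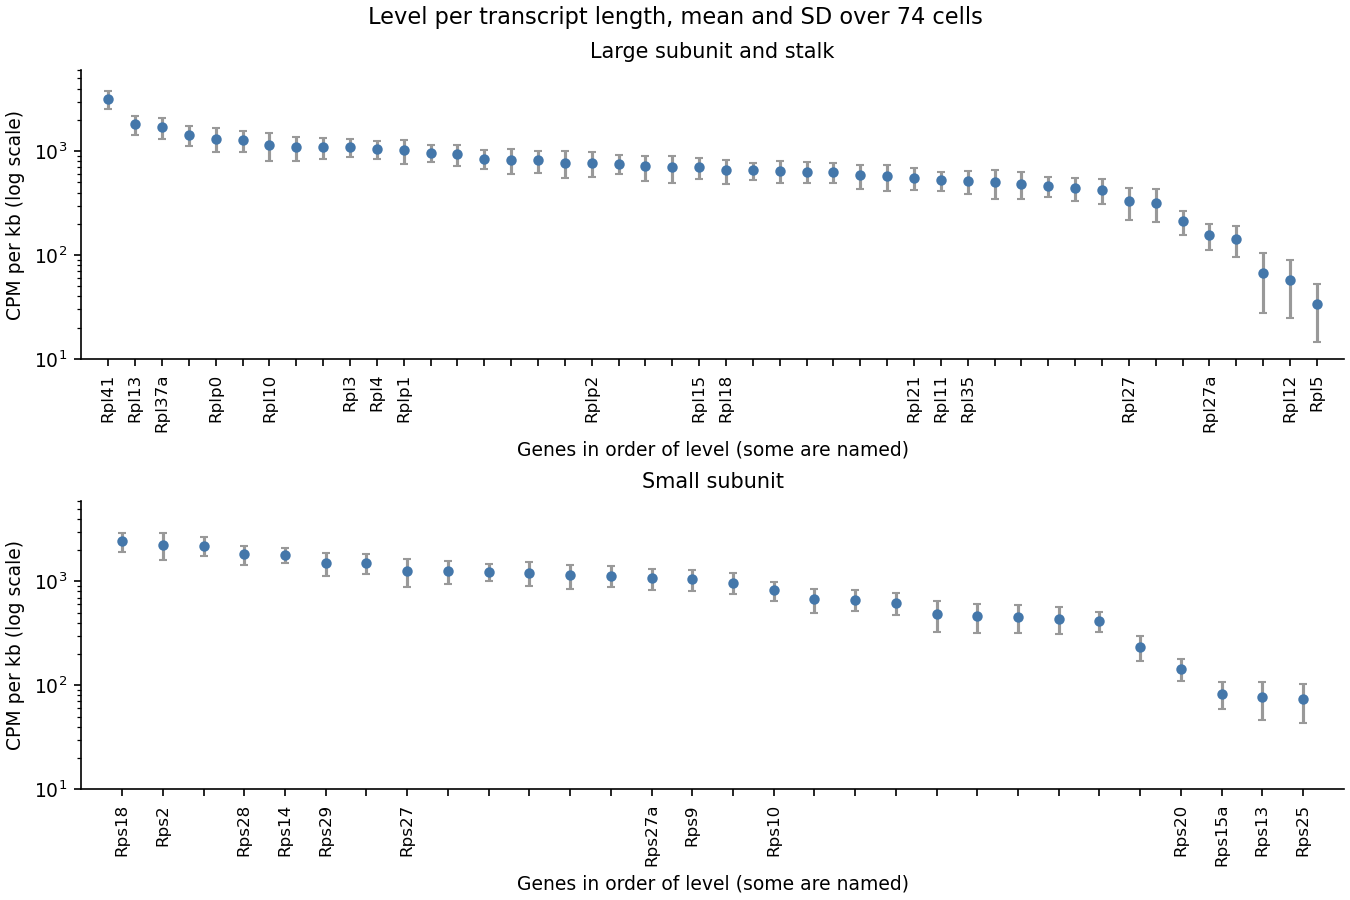
Mean level per transcript length (CPM per kb, log scale) of the 76 standard ribosomal protein genes with a mean of at least 10 CPM, large subunit and stalk above and small subunit below. Points are means and bars SD over 74 cells. The median is 706 CPM per kb, with 10% of the genes below 151 and 10% above 1603. Rpl12, Rpl5, Rps13 and Rps25 stand near the low ends. Some genes are named.

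Without the length scale, a few genes carried much of the signal. The 5 most abundant genes by mean CPM were Rps2, Rplp0, Rpl41, Rpl4 and Rpl3, which together took 17.1% of all counts in ribosomal protein genes, and the 10 most abundant took 29.9%. Rps2, a small-subunit protein near the mRNA entry, ranged from 1120 CPM in the lowest cell through a median of 2214 to 3959 CPM in the highest. Rplp0, the base of the stalk that recruits elongation factors, ranged from 897 through 1876 to 3334 CPM. Its partners on the stalk were lower. Rplp1 had 510 ± 134 CPM and Rplp2 473 ± 129 CPM, and per length these were 1022 and 774 CPM per kb against 1321 for Rplp0. The level of Rplp1 depends on how reads were assigned, as described further on.

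For 6 parents the near-identical copies held more counts than the gene itself. A copy was a line of the table of which at least 50% of the 31-base words also occur in the parent. Only lines annotated as pseudogenes, with symbols beginning with Gm, or among the coding lines with the name of a copy were considered. There were 251 such lines for 67 parents, and 246 of them are not among the 91 genes. Rpl5, which binds the 5S rRNA together with Rpl11, had 69.0 ± 39.3 CPM, and its copies had 960 ± 216 CPM, nearly all in Gm15500. Rps13 had 74.0 ± 29.4 CPM against 641 ± 158 CPM in its copies. Rpl12 had 71.5 ± 40.4 against 483 ± 143, Rpl27 had 223 ± 76.3 against 448 ± 121, and Rpl27a had 181 ± 50.3 against 199 ± 59.2 CPM. Rps12 had 0.31 CPM against 244 ± 86.0 CPM, divided between Rps12-ps3 at 129 and Rps12l1 at 114 CPM. Reads from the identical stretches shown above cannot be assigned to the parent or the copy by sequence, so the levels of these 6 genes and of their copies are uncertain one by one.

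A low level was also seen without abundant copies by this definition. Rps25 had 55.4 ± 22.7 CPM with copies at 0.26 CPM in sum. Of the 31-base words of Rps25, taken over all its annotated transcripts together, 61.6% occurred in no other line compared. Whether reads of Rps25 went to lines that share the other words was not tested. The fewest words of their own were held by Rpl36 (5.95%), Rpl35 (11.2%) and Rpl23a (17.0%), followed by Rps3a1 (24.3%) and the stalk gene Rplp1 (24.9%). The levels of these genes are uncertain as well.

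**Figure D2:**
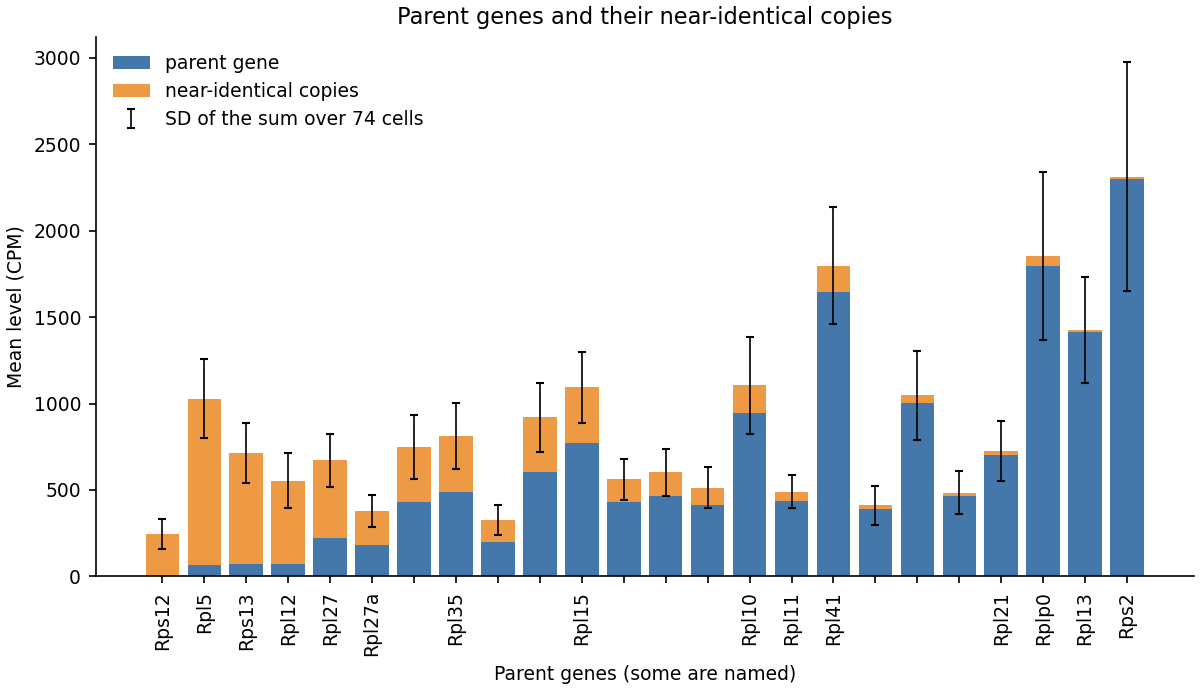
Mean level (CPM) of the 24 parents whose copies reach at least 10 CPM in sum, in blue, with their near-identical copies stacked in orange. Bars show the SD of the sum over 74 cells, and some parents are named. For Rps12, Rpl5, Rps13, Rpl12, Rpl27 and Rpl27a the orange part is the larger one.

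The sum of a parent and its copies mostly varied less over cells than the parent alone. The coefficient of variation (CV, SD divided by mean) of the sum was below that of the parent in 20 of 23 families, with Rps12 left out because its own mean was near 0, and the medians were 0.238 for the sums and 0.257 for the parents. For Rpl5 the CV was 0.57 for the gene, 0.22 for the copies alone and 0.22 for the sum. In the same order it was 0.56, 0.30 and 0.29 for Rpl12 and 0.40, 0.25 and 0.24 for Rps13. For Rpl27 it was 0.34, 0.27 and 0.23. A sum can have a lower CV than its parts by arithmetic alone, so no conclusion is drawn from the lower values. In all, the copies that are not among the 91 genes took 0.507% ± 0.0956 of the counts of a cell, and their share had a Spearman rho of 0.87 with the share of the 91 genes over the 74 cells.

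Ribosomal protein genes varied little between cells for their level. The median CV of the 82 genes with at least 10 CPM was 0.256, against 0.811 over all 8940 genes with that mean. High expression alone lowers a CV, so each gene was set against a smooth trend of CV on mean level fitted over all 8940 genes. Of the 82 genes, 76 lay below that trend, against 49.6% of all genes, and their median rank among all genes was the 14.9 percentile. Of the 76 standard genes, 65 had a CV under 0.3. The most even gene by CV was Rps14, at 0.168, which ranged from 731 through a median of 1184 to 1927 CPM.

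The lowest spreads for their level belonged to Rps25, at the 0.43 percentile of all genes, Rpl11 at 0.98, Rps13 at 1.13, Rpl28 at 1.26 and Rpl27a at 1.35. Rps13, Rpl28 and Rpl27a held 10.4%, 60.5% and 47.7% of the counts summed with their copies. Their levels, and with them these ranks, depend on how reads were assigned. The CV of Rps13 itself was 0.40, above the median of the 82 genes. Rpl11, the 5S rRNA partner of Rpl5, ranged from 221 through 439 to 651 CPM with a CV of 0.20. The genes above the trend were Rpl10-ps3 at the 97.1 percentile, Rps2 at 82.4, Rpl10 at 67.2, Rplp0 at 66.7, Rpl7l1 at 62.9 and Rps7 at 50.4. Rps2 and Rplp0, the 2 most abundant genes, were thus among the most variable for their level, with CVs of 0.29 and 0.26.

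**Figure D3:**
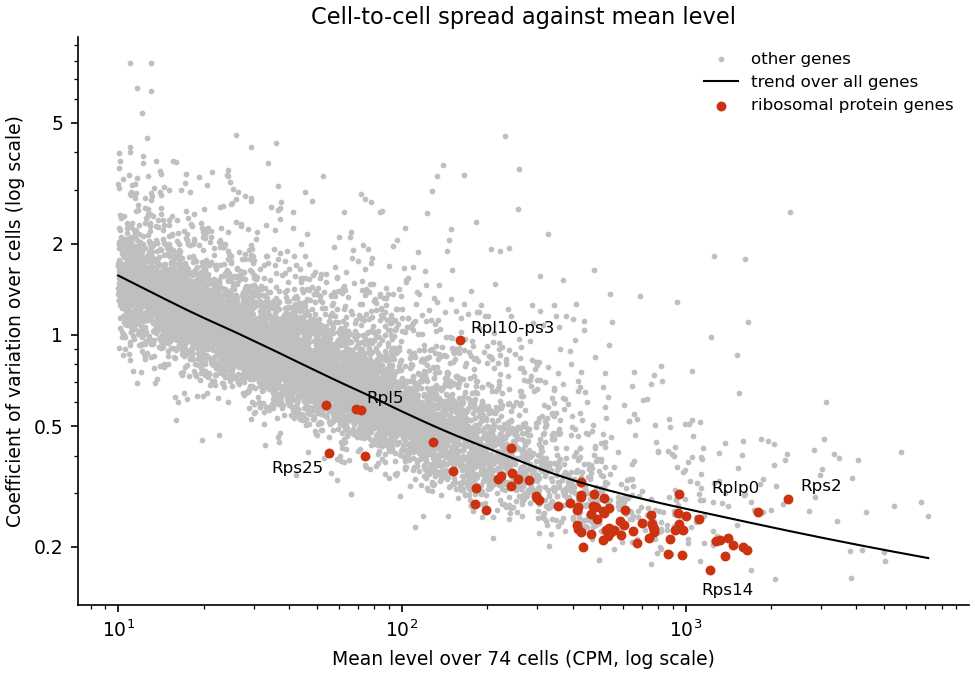
Coefficient of variation over 74 cells against mean level (CPM), both on log scales, for 8940 genes. Red points are the 82 ribosomal protein genes, grey points the other genes and the line the trend over all genes. Of the red points 76 lie below the line, and Rpl10-ps3, Rps2 and Rplp0 are among those above it.

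The paralogs divided into genes found in every cell and genes found in none. Rps27l, a paralog of Rps27 known as a p53 target, had 282 ± 93.2 CPM and was detected in all 74 cells. Per length it had 524 CPM per kb against 1265 for Rps27. Rpl36al had 302 CPM per kb against 503 for its parent Rpl36a, and Rpl7l1 had 123 against 759 for Rpl7. Rpl22l1 had 281 CPM per kb and was the only paralog above its parent, Rpl22, at 143. All 4 of these paralogs were detected in all 74 cells.

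No count was found for Rpl3l, the paralog of Rpl3 known from heart and skeletal muscle, or for Rpl10l, which is known from testis. Rpl39l, also known from male germ cells, had 2 counts in all, while its parent Rpl39 had 429 ± 125 CPM. None of these was detected in any cell, including the 10 cells of the cardiac muscle cluster described next. Rpl3, whose product lies near the catalytic centre, had 1474 ± 298 CPM, with cells from 723 to 2558. Among the copy symbols, Rpl9-ps1 and Rpl36-ps4 had no counts and Rpl36a-ps1 had 1 count, and Rps27rt and Rpl9-ps6 were at 7.79 and 0.72 CPM.

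To compare the genes between kinds of cells, cells were clustered on variable genes from which all ribosomal protein genes, their copies and the lists of translation genes had been removed. The 3 clusters are called by a leading gene. The Lhx2 cluster (32 cells) was led by Lhx2, Tmem119, Shisa3, Adamts2 and Dkk1, with 10 of 21 epicardial and 12 of 16 septum transversum markers detected in at least 50% of its cells. The Lhx9 cluster (32 cells) was led by Lhx9, Tm4sf5, Vwa1, Upk1b and Hpgd, with 18 epicardial and 11 septum transversum markers. The Myh6 cluster (10 cells) was led by Myh6, Csrp3, Ankrd1, Tnnc1 and Rgs4, with 13 of 18 cardiomyocyte markers against 5 and 6 in the Lhx2 and Lhx9 clusters. By the same measure the Myh6 cluster had 7 epicardial and 12 septum transversum markers. The sort label of the cells is pro-epicardial, and these cells carried heart muscle transcripts as well.

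The ribosomal protein share was 5.21% ± 0.897 in the Lhx2 cluster, 5.25% ± 0.644 in the Lhx9 cluster and 4.68% ± 1.26 in the Myh6 cluster (mean ± SD over cells). The first 2 of these differed by 0.044 percentage points, far less than the SD. The Myh6 cluster was 0.552 percentage points below all other cells, also less than the SD of the cells. Its median was 4.21%, and its cells spread from 3.21% to 7.02%, nearly the whole range of the sample. When cells were ranked by share and divided into 4 bins, 6 of its 10 cells fell in the lowest bin, 1 in the next, 0 in the one above and 3 in the highest. Without its highest cell the difference was -0.813 percentage points. With cardiomyocyte and smooth muscle markers taken out of each cell's total it was -0.37 percentage points. It was -0.29 with clusters made by k-means, where the Myh6 cluster had 11 cells. With 2 clusters in place of 3, the cells of the Lhx2 cluster were joined to the Myh6 cluster. That joint cluster had 42 cells and stood at -0.17 against the Lhx9 cluster, which is another comparison. Measured as TPM, which scales each gene by its length and gave a median share of 10.6%, it was -1.46 percentage points.

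**Figure D4:**
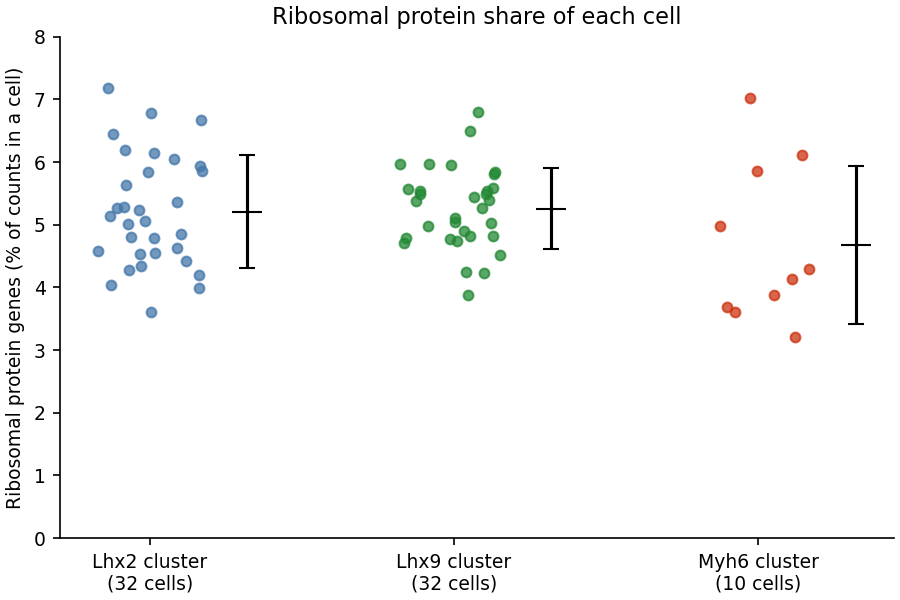
Share of a cell's counts in the 91 ribosomal protein genes (percent), for the cells of each cluster. Points are cells, horizontal lines means and bars SD. The 3 clusters overlap over most of their range, and the Myh6 cluster holds both the lowest cell, at 3.21%, and a cell at 7.02%.

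Few single genes differed between clusters by the fold rule used. A gene was called different when its mean CPM in a cluster was at least 1.5-fold above or below that in all other cells. In the Lhx2 cluster 1 of 82 genes was higher (10.9% of all genes were) and none lower (7.91% of all genes). In the Lhx9 cluster none was higher (8.74%) and 1 lower (14.7%). In the Myh6 cluster none was higher (12.7%) and 1 lower (25.9%). Each count of 1 is 1.22% of the 82 genes, below the share of all genes in the same comparison. A fold rule is passed less often by genes of small spread, and the spread of these genes was small.

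The gene past the rule in the Lhx2 and Lhx9 clusters was Rpl10-ps3, a coding copy of Rpl10 (chromosome 9, 50344201 to 50344968), which shares 96.2% of its 31-base words with Rpl10. It had 213 ± 191 CPM in the Lhx2 cluster, 112 ± 96.7 in the Lhx9 cluster and 147 ± 132 in the Myh6 cluster. It was detected in 57 of 74 cells, and in each cluster some cells were at 0, so the clusters overlapped fully. Rpl10 itself had 944 ± 282 CPM and was detected in all cells. The sum of Rpl10 and its copies was 1216 ± 293, 1023 ± 214 and 1016 ± 331 CPM in the 3 clusters, which did not pass the rule.

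In the Myh6 cluster the gene past the rule was Rps13, at 49.9 ± 29.7 CPM against 67.8 ± 24.1 in the Lhx2 cluster and 87.7 ± 27.9 in the Lhx9 cluster, a log2 ratio of -0.64 to all other cells. The ranges overlapped. Summed with its copies, Rps13 had a log2 ratio of -0.14, with 655 ± 210 CPM in the Myh6 cluster against 701 ± 153 and 747 ± 183. None of the 24 families passed the rule in any cluster when parent and copies were summed, where 7.91% to 25.9% of all genes passed it in each direction. The sums had a small spread, with a median CV of 0.238 without Rps12 against 0.811 over all genes. Such sums pass a fold rule less often.

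Smaller differences ran in the same direction across many genes of the Myh6 cluster. Of the 82 genes, 3 had a mean above that of all other cells, against 38.7% of all genes, among them Rpl13a and Rps19, by 0.017 and 0.016 on the log2 scale. The 82 genes varied together from cell to cell, as described further on, so they are not separate results. The median log2 ratio was -0.15 for the 82 genes and -0.16 for all genes. The next lowest genes after Rps13 were Rpl22l1 at -0.46, Rpl27 at -0.45, Rplp2 at -0.40 and Rpl35a at -0.40. In the Lhx9 cluster the highest were Rps13 at 0.46, Rpl27 at 0.41, Rpl36al at 0.39, Rpl12 at 0.37 and Rpl5 at 0.35. Of these, 4 are parents with copies above their own level.

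Among standard genes with a mean of at least 10 CPM, Rps27 had the largest log2 ratio in the Lhx2 cluster. Its cells there ranged from 196 through a median of 533 to 903 CPM, against 232 through 403 to 632 CPM in the Lhx9 cluster and 307 through 444 to 634 in the Myh6 cluster. The log2 ratio of the Lhx2 cluster to all other cells was 0.39, under the rule, and the clusters overlapped. After it came Rpl10a at 0.27, Rps19 at 0.24 and Rps7 at 0.23. Rpl36al at -0.28, Rpl13a at -0.27, and Rpl12, Rpl5 and Rpl27, between -0.25 and -0.23, were lowest there. In the Lhx9 cluster the lowest after Rpl10-ps3 were Rps27 at -0.34, Rps19 at -0.25, Rps7 at -0.18 and Rps29 at -0.16.

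The share had little relation to the cell cycle. Each cell was given a score, the mean log2(CPM + 1) of 52 G2/M genes or of 42 S-phase genes. Over 74 cells the share had a Spearman rho of 0.011 and a Pearson r of 0.019 with the G2/M score, and a rho of 0.18 and an r of 0.24 with the S-phase score. Without the 2 cells farthest from the median score, r was -0.081 and 0.15. In the 25 cells of lowest G2/M score the share was 5.16% ± 1.15, in the middle 24 cells 5.35% ± 0.65, and in the 25 cells of highest score 4.98% ± 0.696. For the S-phase score the same ranges gave 4.98% ± 1.03, 5.05% ± 0.696 and 5.44% ± 0.795. These are ranges of a score and not types of cells, and 1 to 8 cells lay within 0.1 of each edge.

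Within clusters the values were spread more widely. With the S-phase score, rho was -0.12 in the Lhx2 cluster, 0.23 in the Lhx9 cluster and 0.81 in the Myh6 cluster. With the G2/M score it was -0.06, -0.33 and 0.43. The Myh6 cluster has 10 cells, 9 of them in the range of lowest S-phase score and 8 in that of lowest G2/M score. Without this cluster rho was 0.012 with the S-phase score and -0.12 with the G2/M score. The difference between clusters was not tested.

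**Figure D5:**
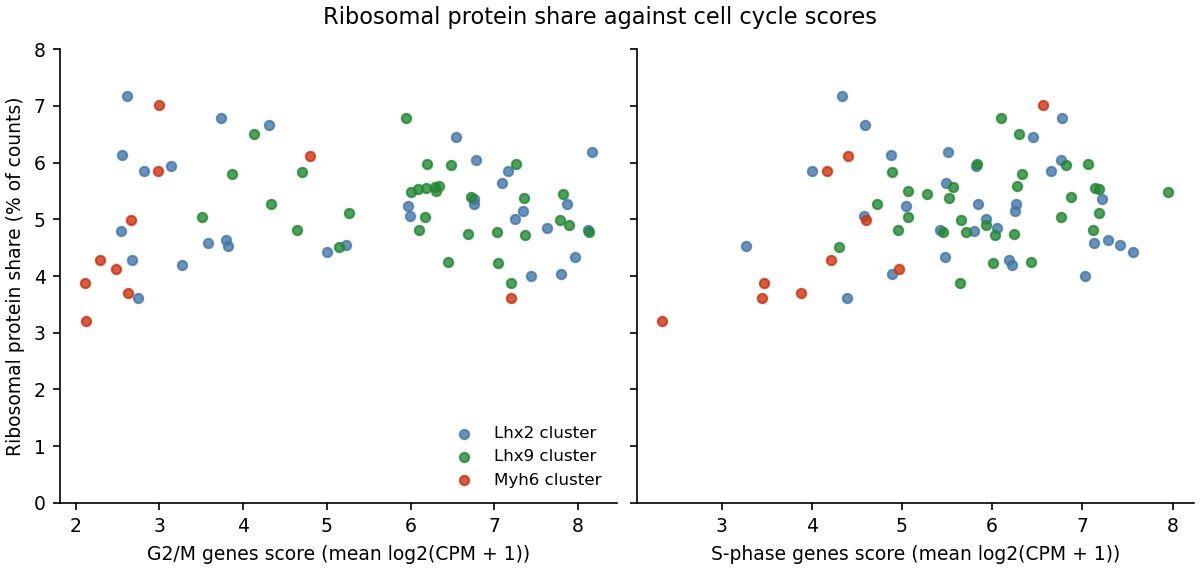
Share of counts in the 91 ribosomal protein genes (percent) against the G2/M score, left, and the S-phase score, right (mean log2(CPM + 1)), for 74 cells coloured by cluster. The cells form no slope with the G2/M score (rho 0.011), and 9 of the 25 cells of lowest S-phase score are from the Myh6 cluster.

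No single ribosomal protein gene passed 1.5-fold between the ends of either score. Between the 25 cells of highest and the 25 of lowest G2/M score, 0 of 82 genes were higher (10.9% of all genes were) and 0 lower (11.3%), with a median log2 ratio of -0.044 (0.007 over all genes). Between the ends of the S-phase score, 0 were higher (14.0% of all genes) and 0 lower (10.9%). Here 71 of the 82 genes had a ratio above 1, against 52.7% of all genes, with a median of 0.11 (0.029 over all genes). The 82 genes varied together from cell to cell, as described next, so the 71 are not separate results. Among the larger ratios with the S-phase score were those of Rpl12 at 0.43, Rps12-ps3 at 0.38 and Rpl8 at 0.33 on the log2 scale. The cells of the 2 ends also differ in cluster, since 9 of the 25 cells of lowest S-phase score and 1 of the 25 of highest are from the Myh6 cluster, and the part of this in the result was not tested.

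Ribosomal protein genes varied together from cell to cell. Over all pairs of the 81 of these genes detected in at least 90% of cells, the median Spearman rho was 0.44, and 98.1% of pairs were above 0. Over all pairs of the 3829 genes detected in as many cells the median was 0.006, with no account taken of level. Counting noise is larger in genes of lower level and brings rho nearer to no relation. The median was 0.48 within the small subunit, 0.40 within the large subunit and 0.44 between them. It was 0.41, 0.37 and 0.59 within the Lhx2, Lhx9 and Myh6 clusters, where the medians over all genes were 0.002, 0.0007 and 0.012. Cells share library preparation, and CPM values of 1 cell share a total, so these values are descriptions.

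The closest pairs were Rps2 with Rplp0 (rho 0.82), Rps18 with Rplp0 (0.79), Rps29 with Rpl37a (0.79), Rpl36 with Rpl41 (0.78) and Rps18 with Rps2 (0.78). Against the mean of all the others, the highest were Rpl21 at 0.84, Rps27a, which encodes ubiquitin fused to a small-subunit protein, at 0.83, and Rps9 at 0.82. Among the lowest of the genes with at least 10 CPM were Rpl10-ps3 at -0.085 and Rpl7l1 at 0.16. Rpl7l1 was detected in all 74 cells, so its low value came with full detection. A single axis described much of the joint variation. The first principal component of the 76 standard genes held 46.3% of their variance, with 75 genes on the same side, and its rho with the share was 0.99. The second held 6.31%.

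Short and long transcripts kept their proportion. The 17 standard genes with transcripts under 600 bases took 0.247 to 0.349 times the counts of the 59 longer ones (median 0.295), with a mean ratio of 0.304 ± 0.0224 in the Lhx2 cluster, 0.294 ± 0.0178 in the Lhx9 cluster and 0.295 ± 0.0196 in the Myh6 cluster. The rho of this ratio with total counts was 0.10, and with the share -0.012.

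Rack1 and Fau encode ribosomal proteins without the symbol pattern. Rack1, a scaffold on the small subunit, had 966 ± 244 CPM, and Fau, a ubiquitin-like fusion to a small-subunit protein, had 221 ± 75.6. Both were detected in all cells, and neither passed 1.5-fold in a cluster. Over 74 cells the rho with the share was 0.56 for Rack1 and 0.34 for Fau. The score of other TOP mRNAs (22 genes, with Eef1a1, Npm1 and Hnrnpa1 the most abundant) had a rho of 0.69. That of translation factors (40 genes) had a rho of 0.56. A score averages its genes, and the median rho of the single genes was 0.36 for the TOP mRNAs and 0.23 for the translation factors. In the Myh6 cluster 2 of the 22 (Npm1 and Vim) and 4 of the 40 (Eif4h, Eif4g1, Eef1e1 and Eef2k) were 1.5-fold lower, where 25.9% of all genes were. The 76 mitochondrial ribosomal protein genes with at least 10 CPM had a median CV of 0.485, between that of the 82 genes and that of all genes, with no account taken of level.

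Factors that assemble ribosomes passed the 1.5-fold rule in larger number. Of 52 biogenesis factors, 23 were 1.5-fold lower in the Myh6 cluster and 0 higher, with a median log2 ratio of -0.50, against -0.15 for the 82 ribosomal protein genes and -0.16 for all genes, of which 25.9% were lower. The 23 were Npm1, Ncl, Nop58, Dkc1, Mybbp1a, Fbl, Gnl3, Nolc1, Bop1, Emg1, Nop2, Wdr43, Rrp9, Ppan, Rrs1, Ddx18, Tcof1, Lyar, Mphosph10, Gar1, Ddx21, Rrp12 and Heatr1. Ncl, the nucleolar protein nucleolin, had 527 CPM there against 1181 in the Lhx9 cluster and 783 in the Lhx2 cluster. In the Lhx9 cluster 13 of the 52 were higher (8.74% of all genes were). Between the ends of the S-phase score 19 were higher (14.0% of all genes), where no ribosomal protein gene was. The median CV was 0.57 for the 52 factors and 0.256 for the 82 ribosomal protein genes. A fold rule is passed less often by genes of small spread, so these counts are not on an equal footing. Of 20 RNA polymerase I genes, 6 were lower in the Myh6 cluster (Polr2e, Polr2h, Polr1c, Taf1a, Taf1b and Polr1a), where 25.9% of all genes were, and 5 were higher in the Lhx2 cluster (Polr1e, Taf1a, Znrd1, Taf1b and Polr1a), where 10.9% of all genes were. The share had a rho of 0.32 with the biogenesis score and of 0.24 with the RNA polymerase I score. In the Myh6 cluster 47 of 51 G2/M genes and 37 of 42 S-phase genes were also 1.5-fold lower, and their part in these differences was not tested.

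Regulators were described by lists and by single genes. Over 74 cells the share had a rho of -0.16 with the mean of 29 genes of the Myc and mTOR pathways and of -0.10 with 16 p53 and nucleolar stress genes. Myc, detected in 50 cells, had 32.0 ± 55.9 CPM in the Lhx2 cluster, 142 ± 149 in the Lhx9 cluster and 208 ± 266 in the Myh6 cluster, where the SD exceeds each mean. Its log2 level had a rho of 0.39 with the share, and of 0.67, 0.23 and 0.53 within the Lhx2, Lhx9 and Myh6 clusters. Mycn had a rho of -0.15. With the score of septum transversum markers rho was -0.41, with epicardial markers 0.19 and with cardiomyocyte markers -0.16. For septum transversum markers it was -0.46, -0.46 and 0.018 within the Lhx2, Lhx9 and Myh6 clusters, and the median rho of the single genes was -0.21. With dissociation stress genes rho was -0.034 and with the mitochondrially encoded share 0.24. Within the 3 clusters, in the same order, the mitochondrially encoded share gave 0.45, 0.37 and -0.30.

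Some markers of other cell types were present. Of 10 endothelial markers 3 reached 10 CPM, Egfl7 at 57.8 CPM in 67 cells, Tek at 50.8 CPM in 52 cells and Pecam1 at 16.6 CPM in 62 cells, and 4 were detected in no cell (Cdh5, Tie1, Emcn and Cldn5). Also detected in no cell were 4 of 9 leukocyte, 5 of 12 hepatoblast and 5 of 8 neural crest markers. Of 11 erythroid markers 3 reached 10 CPM, and 1 was found in at least 50% of cells, Hba-a2 at 48.3 CPM in 45 cells. The rho of the share with the scores of these lists lay between -0.096 (erythroid) and 0.18 (hepatoblast), with endothelial at -0.016, neural crest at -0.052, leukocyte at 0.14 and, apart from these, smooth muscle at -0.26.

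Outside these lists, the 10 genes with the highest and the 5 with the lowest correlation with the share are given. Over 3600 genes detected in at least 90% of cells the median rho with the share was 0.012, and 17 genes were above 0.5. The highest were Hspe1 and Hspd1, which encode the mitochondrial chaperonin pair, at 0.71 and 0.61. They were followed by Ppia at 0.59, Cct5, a subunit of the cytosolic chaperonin, at 0.59, Snrpd3, Ranbp1, Cct7, Eny2 and Ptma, all at 0.54, and Hsp90aa1 at 0.53. The lowest were Tuba1a at -0.55, Col18a1 at -0.51, Cand2 at -0.50, Zfp280d at -0.48 and Srebf2 at -0.47. These were chosen from 3600 genes for their rho, so the values are descriptions.

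Promoters were examined because the genes moved together. RefSeq promoters (GRCm38.p6, 250 bases before to 50 after the start) were found for 57 of the 77 standard genes and for 27025 genes in all. The pyrimidine string CTTTCC, on either strand, occurred in 50.9% of the 57 and 29.3% of all promoters. Within 10 bases before to 20 after the start, on the strand of the gene, it occurred in 15.8% (9 genes) and 1.59%. CTCTTT, which can overlap CTTTCC, occurred there in 12.3% and 1.25%. CCGGAAG, the core of ETS family sites, occurred in the whole window in 42.1% and 9.93%, AAGATGGCG, a YY1 site, in 5.26% and 1.64%, and TATAAA in 10.5% and 15.7%. A match is a description of letters and not a binding site. The stretches below are from 5 of the 9 genes with CTTTCC near the start, not necessarily the 5 most abundant. The stretches run from 60 bases before the start to the 20th base of the transcript, with the strings searched in capitals. They lie at chr14:18270967-18271046 (Rpl15, minus strand), chr7:45718011-45718090 (Rpl18, plus), chr17:27635225-27635304 (Rps10, minus), chr2:39005112-39005191 (Rpl35, minus) and chr3:90213629-90213708 (Rps27, minus).
Rpl15: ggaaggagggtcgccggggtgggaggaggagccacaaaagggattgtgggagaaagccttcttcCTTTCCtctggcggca
Rpl18: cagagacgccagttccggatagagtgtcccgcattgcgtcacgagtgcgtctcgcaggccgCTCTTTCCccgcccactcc
Rps10: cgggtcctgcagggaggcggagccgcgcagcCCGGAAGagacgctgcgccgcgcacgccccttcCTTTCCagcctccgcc
Rpl35: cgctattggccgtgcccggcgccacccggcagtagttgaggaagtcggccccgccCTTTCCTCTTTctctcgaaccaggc
Rps27: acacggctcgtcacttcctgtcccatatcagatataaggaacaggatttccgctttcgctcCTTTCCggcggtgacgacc

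The 5 genes shown were even between cells for the most part. Rpl15 had 772 ± 176 CPM, Rpl18 757 ± 193, Rps10 535 ± 116 and Rpl35 487 ± 120, with CVs of 0.23, 0.26, 0.22 and 0.25. Rps27 had 477 ± 143 CPM and a CV of 0.30, the highest of the 5.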

How the data were processed

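The deposited table holds the authors' estimated counts for each gene and cell, with no scaling for depth or length. The submitters' processing notes name kallisto, with no version, and the human build hg38, although the identifiers are mouse Ensembl identifiers. All values are whole, with the rounding step not given in the sources used here. GENCODE M21 (GRCm38) supplied symbols, lengths and positions for 29936 of 30323 identifiers, and the 387 others held 0.346% of counts.

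All 74 cells were used, sorted singly, with no doublet caller. Total counts were 216177 to 2618538 per cell. Counts were scaled to CPM, and log2(CPM + 1) was used for scores and correlations. The members and lists were chosen with earlier results of these data known. Length, copy and promoter analyses were added after the first results were seen. Genes were named by rule: extremes of level, spread, cluster ratio and correlation, the paralogs and the stalk, with genes outside the rule chosen after their values were seen.

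Clusters were made by Ward's method at 3 clusters from 10 principal components of 1000 variable genes out of 12052. Spread trends were lowess fits (fraction 0.3) over 8940 genes with a mean of at least 10 CPM. Copies were matched on 31-base words of the annotated transcripts. A list of snoRNA host genes was not analysed here, and some genes are not reported here. The fold rule was tested on simulated data. Alternatives were TPM, scran size factors, cells thinned to 200000 counts, other cluster numbers, k-means, other totals, thresholds and pseudocounts. Size factors came from scran 1.30.0 in R 4.3.3, clusters from SciPy 1.17.1 and scikit-learn 1.9.0, trends from statsmodels 0.14.6 and plots from matplotlib 3.10.9, under Python 3.11.15 with pandas 2.3.3 and numpy 2.4.6.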

Additional observations from a re-analysis of the deposited data

How the results depend on the processing

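Over 17 results and 97 alternatives, 75 values stayed within the spread or count limit set for them, 16 moved beyond it and 6 changed sign. As TPM, which weights by length, the median share was 10.6% and the Myh6 cluster stood at -1.46 percentage points. The difference of the Lhx9 and Lhx2 clusters, 0.044 percentage points, changed sign without the 5 most abundant genes (-0.0101) and with cell cycle genes out of the clustering (-0.0243). The rho with the G2/M score was -0.060, -0.33 and 0.43 within the Lhx2, Lhx9 and Myh6 clusters and -0.12 without the Myh6 cluster, and the rho with the S-phase score was -0.12 and 0.81 within the Lhx2 and Myh6 clusters. At 2-fold, and with copies summed, each count of 1 became 0. With no filter on low values 87 genes were compared, and the genes so added had means below 10 CPM. Of the 87, 3 were higher and 3 lower in the Lhx2 cluster. In the Lhx9 cluster 2 were higher and 3 lower, and in the Myh6 cluster 1 was higher and 3 lower. The share over all genes was not computed for these alternatives of the fold rule, so their counts have no background. The median CV of the genes stayed between 0.208 and 0.318 and the median pair rho between 0.37 and 0.59 over all alternatives run. Copies summed into parents, cells left out and thinned pair correlations were alternatives chosen after seeing the data. Cells are 1 sample, so embryo and batch cannot be told apart from differences between cells, while thinning to 200000 counts left the median share at 5.10% and the Myh6 difference at -0.558 percentage points, and the kallisto index is not known.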
